A study of Homo sapiens with 6 samples.

Results

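The genes described here carry glucose through glycolysis or respond to low oxygen: glucose transporters, the enzymes from hexokinase to lactate dehydrogenase, lactate transporters, pyruvate dehydrogenase and its kinases, HIF1A with 2 of its prolyl hydroxylases, and 7 further HIF1A target genes. They were taken by gene name from the expression table, in which all 39 were found among 50868 genes. PolyA RNA had been sequenced from HCT116, a line of human colorectal cancer cells, after transfection either with pcYY2, a vector that overexpresses the zinc-finger transcription factor YY2, or with pcCon, the empty vector pcDNA3.1(+). Each group had 3 samples, and both groups were HCT116, so that 1 cell line underlies every value. The labels give neither the time after transfection nor an oxygen or glucose condition.

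Glycolysis splits glucose into pyruvate and yields ATP without oxygen. Pyruvate is either reduced to lactate and exported, or taken into mitochondria and oxidised by pyruvate dehydrogenase, which PDK kinases switch off. When oxygen is low the hydroxylases EGLN1 and EGLN3 no longer mark HIF1A for degradation, and HIF1A binds hypoxia response elements near many of these genes. Since HIF1A is controlled mainly at the protein level, its RNA is a poor measure of its activity.

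The core of a hypoxia response element is ACGTG or GCGTG. Both were searched on both strands in the 250 bases before each gene start of RefSeq on GRCh38.p14, along with AANATGGC, the core of the motif that YY2 shares with YY1. Of the 39 genes, 34 had a promoter entry, and SLC2A3, PFKFB2, SLC16A1, NDRG1 and VEGFA had none. ACGTG was present in 19 of the 34 windows and in 18.5% of all 35116 promoter windows. GCGTG was present in 14 of the 34 and in 32.2% of all, and at least 1 of both cores in 26 of the 34 and in 43.2% of all. AANATGGC was present in 0 of the 34 and in 3.86% of all. The 34 windows were 1 per gene, whereas the 35116 were all promoter entries, not matched to these genes in base composition. A match of letters is not a bound site, HIF1A elements also lie outside such windows, and so may YY2 sites. As few windows of any gene hold AANATGGC, a count of 0 does not show that these genes lack YY2 sites. ACGTG is part of the E-box CACGTG, which other factors bind. The windows of the 4 genes with an entry that differed between pcYY2 and pcCon are shown because those genes carry the comparison, and the window of CA9 because it had the highest fold change of the 39. Bases are written 5′ to 3′ on the strand of the gene, and capitals mark the cores ACGTG or GCGTG on either strand.
ALDOC: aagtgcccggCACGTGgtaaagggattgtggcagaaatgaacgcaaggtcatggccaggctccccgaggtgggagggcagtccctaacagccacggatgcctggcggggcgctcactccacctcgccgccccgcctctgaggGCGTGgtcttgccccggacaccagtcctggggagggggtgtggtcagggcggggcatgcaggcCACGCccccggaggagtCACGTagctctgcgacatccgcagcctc
PGK1: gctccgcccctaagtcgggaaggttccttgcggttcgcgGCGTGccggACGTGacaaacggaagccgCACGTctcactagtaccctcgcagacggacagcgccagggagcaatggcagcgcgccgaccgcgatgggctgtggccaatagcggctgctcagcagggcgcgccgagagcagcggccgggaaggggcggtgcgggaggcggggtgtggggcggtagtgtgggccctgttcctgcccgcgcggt
HK2: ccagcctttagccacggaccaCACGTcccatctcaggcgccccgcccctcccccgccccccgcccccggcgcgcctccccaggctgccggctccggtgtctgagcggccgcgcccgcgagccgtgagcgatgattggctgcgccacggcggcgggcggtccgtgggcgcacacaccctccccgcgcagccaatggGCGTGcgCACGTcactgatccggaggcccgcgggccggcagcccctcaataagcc
CA9: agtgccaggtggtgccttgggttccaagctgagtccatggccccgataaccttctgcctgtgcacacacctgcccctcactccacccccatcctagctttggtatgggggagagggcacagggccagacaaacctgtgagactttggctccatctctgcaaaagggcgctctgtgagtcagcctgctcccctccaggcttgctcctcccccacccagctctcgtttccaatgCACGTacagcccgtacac
SLC2A1: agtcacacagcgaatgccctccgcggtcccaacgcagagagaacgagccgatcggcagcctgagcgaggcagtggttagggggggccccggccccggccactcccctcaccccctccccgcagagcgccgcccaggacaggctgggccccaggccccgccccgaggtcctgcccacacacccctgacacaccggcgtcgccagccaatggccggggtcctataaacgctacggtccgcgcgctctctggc
The ALDOC window, chr17:28576896-28577145 on the minus strand, held 4 separate runs of cores, of which the farthest from the gene start is an E-box. The PGK1 window, chrX:78103998-78104247 on the plus strand, held 3 runs within its first part, which started 211, 202 and 183 bases before the gene start. The HK2 window, chr2:74833877-74834126 on the plus strand, also held 3 runs. The CA9 window, chr9:35673678-35673927 on the plus strand, held 1 run, 18 bases before the gene start. The SLC2A1 window, chr1:42958869-42959118 on the minus strand, held 0.

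Total counts were between 15158360 and 29572882 per sample, and pcYY2 2 was the deepest. Values by sample are given as CPM, the counts relative to the library total after scaling by TMM, a factor per sample that was between 0.9892 and 1.007. YY2, the transfected gene, was at 4.80 to 6.97 CPM in pcCon and at 30.8 to 32.4 CPM in pcYY2. Of 6 markers of colorectal epithelium, EPCAM, CDH1, KRT8 and KRT18 were expressed in every sample at 60.5 CPM or more, while CDX1 had 0 counts in all 6 samples and VIL1 at most 2 counts. Markers of other cells were not called or not tested: PTPRC, PECAM1, ALB and CD3E reached at most 2.39 CPM, and VIM was at 5.59 to 7.38 CPM. The sample pcYY2 2 stood apart in its group for the blood and endothelial markers, with 69 counts of PTPRC against 1 and 6, 27 of PECAM1 against 1 and 4, and 12 of CD3E against 0 and 0. For PTPRC this was 2.39 CPM against 0.0663 and 0.333 CPM. Within pcCon, sample 1 was the highest for PTPRC, with 15 counts against 2 and 3, and for PECAM1, with 11 against 3 and 0. CD3E had 1, 0 and 1 counts in pcCon. COL1A1, a fibroblast marker, was at 25 to 28.4 CPM in pcCon and 28.5 to 35.4 CPM in pcYY2, without overlap (log2 fold change 0.30, edgeR, adjusted p = 0.116). The part of these markers in the results was not tested. Without pcYY2 2, ALDOC and NDRG1 were the 2 genes described here that were called, and without pcCon 1 it was SLC2A1 alone. KRT8 was higher in pcYY2 than in pcCon, with a log2 fold change of 0.67 (edgeR, adjusted p = 0.0117). As bulk RNA was sequenced, fewer cells expressing a gene and less RNA of it per cell cannot be told apart.

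Transfection with pcYY2 was accompanied by changes of 5 of the 35 genes that could be tested, 2 upward and 3 downward. The glycolytic enzymes ALDOC and PGK1 rose, whereas the glucose transporter SLC2A1, hexokinase HK2 and the hypoxia-induced gene NDRG1 fell. Changes were moderate, from a fall by 36.7% of SLC2A1 to a gain of 63.8% for ALDOC. A gene was tested if its FPKM averaged 1 or more over all 6 samples, which SLC2A3, CA9, ANKRD37 and EGLN3 missed, and called means an adjusted p of 0.05 or less in edgeR's quasi-likelihood test, adjusted over all 12015 genes tested. The FPKM rest on lengths beyond the canonical transcript. A filter at a mean of 1 CPM per kilobase of that transcript passed all of these genes but CA9. In that fit 4 of 38 were called, and 1126 of all 13383 genes. The 5 called genes are 14.3% of those tested here, against 9.37% of all genes. Called higher were 2 of 35, with 4.52% of all genes called higher, and called lower were 3 of 35, with 4.85% of all genes called lower. The median log2 fold change over the 35 was -0.01, compared to 0.00 over all genes tested, with 16 values above 0 and 19 below. The samples of both groups did not overlap for 13 of the 35 genes, or 37.1%, which is near the 35.8% of all genes tested. At an unadjusted p under 0.05 in edgeR stood 8 of the 35, a smaller share than the 3467 of all 12015 genes tested. Together, the 39 genes held between 1.45% and 1.62% of all counts of a sample, and the groups overlapped in this share.

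**Figure D1:**
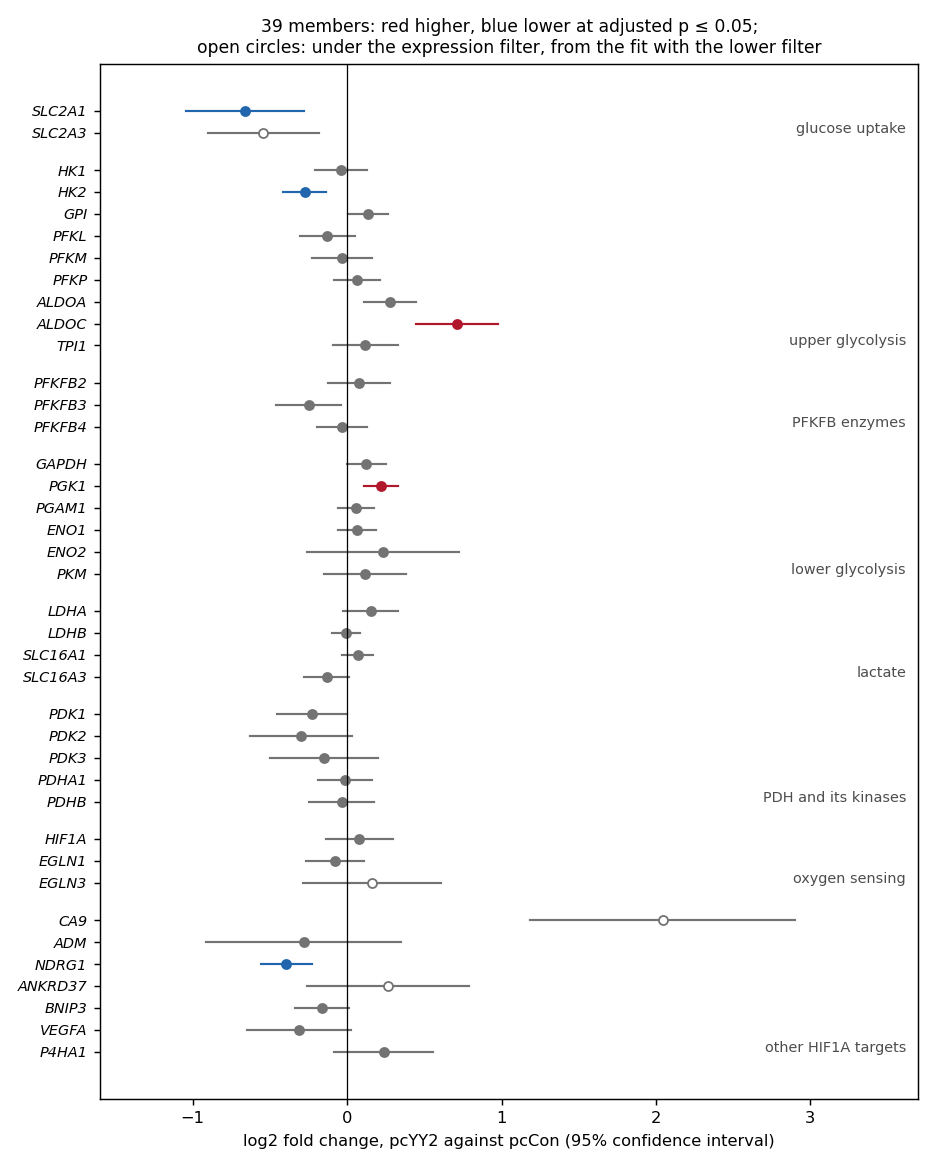
Log2 fold change of each of the 39 genes, pcYY2 against pcCon, with its 95% confidence interval from the edgeR fit, ordered by role. Red and blue points mark the 2 genes called higher and the 3 called lower, grey points were not called, and open circles are the 4 genes under the filter, taken from the fit with a filter at a mean FPKM of 0.1. CA9 stands farthest to the right at 2.04 and has the widest interval.

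Levels differed by orders of magnitude between genes. Given as CPM per kilobase of the canonical transcript, so that genes of different length can be compared, GAPDH had the highest level in pcCon at 2955 and ENO1 followed at 1466. LDHB was at 815, PKM at 613 and TPI1 at 603 CPM per kilobase. At the other end, PDK1 was at 1.67, SLC2A3 at 1.43 and CA9 at 0.337 CPM per kilobase. The 6 highest levels were those of enzymes between triose phosphate and lactate. The 5 called genes lay in the middle of this order in pcCon, with 104 for PGK1, 98.8 for SLC2A1, 31.8 for NDRG1, 22.3 for ALDOC and 19.6 CPM per kilobase for HK2.

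**Figure D2:**
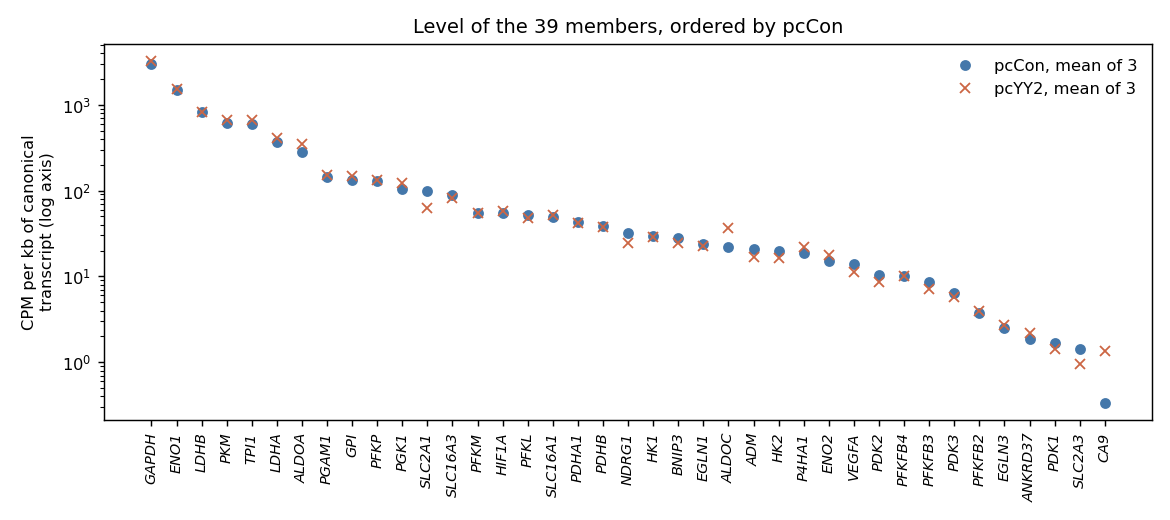
Mean level of each of the 39 genes as CPM per kilobase of the canonical transcript on a log axis, ordered by pcCon, with circles for pcCon and crosses for pcYY2 (means of 3 samples each). The symbols lie on each other for most genes, and they separate most for CA9, at 0.337 in pcCon.

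SLC2A1 (GLUT1), the basal glucose transporter of many cells, made up 98% to 98.8% of the level per kilobase of SLC2A1 and SLC2A3 in every sample. SLC2A1 (ENSG00000117394) was at 258, 360 and 385 CPM in pcCon 1 to 3 and at 189, 203 and 243 CPM in pcYY2 1 to 3. All pcYY2 samples were lower than all pcCon samples, although pcCon 1 and pcYY2 3 were close to each other. Mean expression fell from 334 ± 67.0 to 212 ± 28.3 CPM (SD, n = 3 per group), a log2 fold change of -0.66 with an SE of 0.161 (edgeR, adjusted p = 0.0497). This call was at the edge of the threshold: it held in 7 of 16 fits, was lost without any 1 of the samples other than pcCon 1 (adjusted p 0.0738 to 0.134) and also with the robust fit (adjusted p = 0.0810) or with the lower expression filter (adjusted p = 0.0599). SLC2A3 (GLUT3), a high-affinity transporter known from neurons, was at 4.76 to 5.99 CPM in pcCon and at 3.49 to 3.85 CPM in pcYY2. Its groups did not overlap either, but it was under the filter. With the filter lowered to a mean FPKM of 0.1 the log2 fold change of SLC2A3 was -0.54 and not called (edgeR, adjusted p = 0.0874). With a filter at a mean of 1 CPM per kilobase instead, neither SLC2A3 (edgeR, adjusted p = 0.0592) nor SLC2A1 (edgeR, adjusted p = 0.0515) was called.

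**Figure D3:**
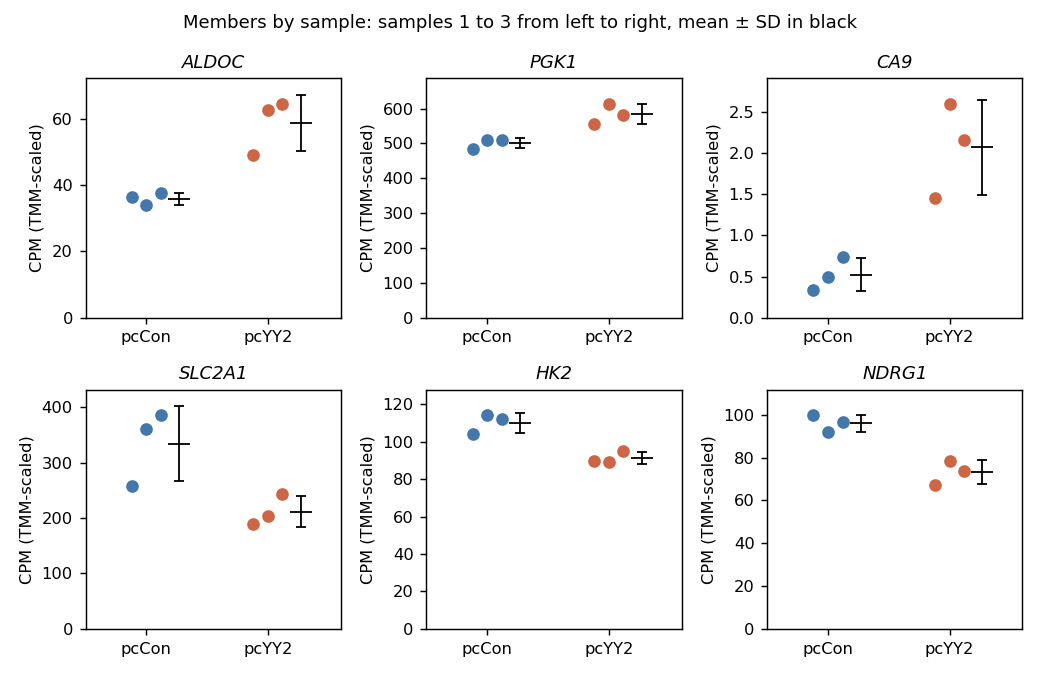
CPM after TMM scaling of the 5 called genes and of CA9 in each sample, with pcCon in blue and pcYY2 in orange, samples 1 to 3 from left to right, and the mean ± SD (n = 3) in black; each axis starts at 0. In every panel the samples of pcYY2 lie on 1 side of those of pcCon, and for SLC2A1 the nearest samples of both groups are at 243 and 258 CPM.

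Of the 9 enzymes of upper glycolysis, which turn glucose into triose phosphates, ALDOC was called higher, HK2 lower and 7 were not called. Hexokinases trap glucose in the cell by phosphorylation, and HK2 is the inducible form that tumours often express. HK2 (ENSG00000159399) was at 104, 114 and 112 CPM in pcCon and at 89.6, 88.9 and 94.9 CPM in pcYY2. Each pcYY2 sample was lower than each pcCon sample, and the means were 110 ± 5.41 and 91.1 ± 3.32 CPM (SD, n = 3 per group). The log2 fold change was -0.28 with an SE of 0.0582 (edgeR, adjusted p = 0.0342). HK1, the constitutive form, was at 105 to 112 CPM in pcCon and 97.6 to 114 CPM in pcYY2, with overlapping groups and a log2 fold change of -0.04. Accordingly, HK2 made up 38.8% to 40.9% of the level per kilobase of both hexokinases in pcCon and 33.2% to 37.2% in pcYY2, again without overlap. The HK2 call was lost when any 1 of the 6 samples was left out (adjusted p 0.0557 to 0.113) and with the lower filter (adjusted p = 0.0563), while the fold change stayed between -0.32 and -0.25 on the log2 scale.

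Aldolases split fructose 1,6-bisphosphate. ALDOC (ENSG00000109107), the isozyme best known from brain, was at 36.3, 33.9 and 37.5 CPM in pcCon and at 49.1, 62.6 and 64.5 CPM in pcYY2. The groups were well apart, and pcYY2 1 was the lowest of its group. Expression rose from 35.9 ± 1.83 to 58.7 ± 8.42 CPM (SD, n = 3 per group), a fold change of 1.64 with a 95% confidence interval of 1.36 to 1.97, or 0.71 on the log2 scale with an SE of 0.112 (edgeR, adjusted p = 0.0158). This was the highest fold change of the 35 tested genes. ALDOA, the main aldolase, was at 450 to 475 CPM in pcCon and 511 to 621 CPM in pcYY2, without overlap, but its log2 fold change of 0.28 was not called (edgeR, adjusted p = 0.0559). That outcome depended on the fit, as ALDOA was called higher in 4 of 16. Those were DESeq2 (adjusted p = 0.0148) and, in edgeR, the robust fit (0.0449), no filter (0.0412) and the fit without pcYY2 1 (0.0325). ALDOC made up 7.13% to 7.47% of the level per kilobase of both aldolases in pcCon and 8.92% to 10.5% in pcYY2, so it remained the minor isozyme. Leaving out pcCon 1, pcCon 2, pcCon 3 or pcYY2 3 lifted the adjusted p of ALDOC to between 0.0508 and 0.0631.

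TPI1, which interconverts the triose phosphates, was at 916, 762 and 768 CPM in pcCon and at 804, 948 and 902 CPM in pcYY2. The groups overlapped, and its log2 fold change was 0.12 with an SE of 0.0894 (edgeR, adjusted p = 0.428). Its 4 named pseudogenes held 13.0% of the summed counts, so part of its reads is uncertain. GPI, which isomerises glucose 6-phosphate, was at 542 to 558 CPM in pcCon and at 554, 634 and 623 CPM in pcYY2, with a log2 fold change of 0.13 (edgeR, adjusted p = 0.167). Without pcYY2 1, the sample nearest to pcCon, GPI was called higher (edgeR, adjusted p = 0.0375).

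The phosphofructokinases PFKL, PFKM and PFKP, which catalyse the committed step, had log2 fold changes of -0.13, -0.03 and 0.07 with overlapping groups and were not called. PFKP, the platelet isoform, was the main one, with 53.8% to 54.6% of their summed level per kilobase in pcCon and 55.7% to 58.4% in pcYY2. The PFKFB enzymes set the concentration of fructose 2,6-bisphosphate, the activator of that step, and 0 of the 3 were called (edgeR; 1 had an unadjusted p under 0.05, and DESeq2 called 0). PFKFB4, which had the highest FPKM of the 3, was at 34.7, 35.3 and 37.4 CPM in pcCon and at 33.4, 34.9 and 36.6 CPM in pcYY2. These values overlapped closely, and its log2 fold change was -0.03 with an SE of 0.0685 (edgeR, adjusted p = 0.791). PFKFB3, the form with the strongest kinase activity and a known HIF1A target, was at 36.4 to 40.4 CPM in pcCon and at 28.9 to 34.8 CPM in pcYY2, without overlap, but its log2 fold change of -0.25 did not pass (edgeR, adjusted p = 0.119). PFKFB2 was at 25.3 to 28.8 CPM in pcCon and 26.5 to 29.7 CPM in pcYY2. The share of PFKFB3 in the level per kilobase of the 3 was 35.5% to 39.7% in pcCon and 32.7% to 35.4% in pcYY2.

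In lower glycolysis, where ATP is gained, PGK1 was called higher and the other 5 enzymes were not called. PGK1 (ENSG00000102144), phosphoglycerate kinase, was at 485, 510 and 509 CPM in pcCon and at 556, 613 and 581 CPM in pcYY2. The lowest pcYY2 sample was above the highest pcCon sample. Expression rose from 501 ± 13.9 to 583 ± 28.6 CPM (SD, n = 3 per group), a gain of 16.4%, or 0.22 on the log2 scale with an SE of 0.0470 (edgeR, adjusted p = 0.0356). The call of PGK1 held without pcYY2 1 but was lost without any 1 of the other samples, where the adjusted p was 0.0674 to 0.107. GAPDH, the next enzyme upstream and a common reference gene, was at 3935, 3821 and 3634 CPM in pcCon and at 3877, 4416 and 4118 CPM in pcYY2. The groups overlapped through pcYY2 1, and the log2 fold change was 0.12 with an SE of 0.0534 (edgeR, adjusted p = 0.182). PGAM1, ENO1, ENO2 and PKM had log2 fold changes of 0.06, 0.06, 0.23 and 0.12, all with overlapping groups. The value of ENO2, the neuronal enolase, rested on pcYY2 2, at 55.9 CPM against 33.1 and 34.1 in the other pcYY2 samples and 32.7 to 38.4 CPM in pcCon. Without that sample its log2 fold change was -0.06. All 6 genes of lower glycolysis had a value above 0 on the log2 scale, and their summed share of all counts was 0.827% to 0.889% in pcCon and 0.867% to 0.966% in pcYY2, which overlapped.

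At the lactate step 0 of 4 genes were called (edgeR and DESeq2, with 0 at an unadjusted p under 0.05 in edgeR). LDHB, the isozyme that favours lactate oxidation, had the highest level per kilobase of the 4 and was at 1073, 1092 and 1022 CPM in pcCon and at 1078, 1063 and 1033 CPM in pcYY2. It was the steadiest of the 4, with a log2 fold change of -0.01, an SE of 0.0376 and a 95% confidence interval of -0.10 to 0.08 (edgeR, adjusted p = 0.933). LDHA, which favours lactate formation, was at 877, 873 and 723 CPM in pcCon and at 912, 938 and 901 CPM in pcYY2, without overlap but with a log2 fold change of 0.15 that did not pass (edgeR, adjusted p = 0.233). LDHA made up 29.1% to 32.2% of the level per kilobase of both in pcCon and 33.0% to 33.9% in pcYY2. Of the lactate transporters, SLC16A1 (MCT1) was at 184 to 187 CPM in pcCon and 189 to 200 CPM in pcYY2, and SLC16A3 (MCT4), the hypoxia-induced exporter, at 219 to 248 CPM in pcCon and 202 to 218 CPM in pcYY2. Neither pair of groups overlapped, in opposite directions, and neither gene was called (edgeR, adjusted p = 0.346 for SLC16A1 and 0.207 for SLC16A3).

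At the entry to mitochondria, 0 of 5 genes were called (edgeR and DESeq2, with 0 at an unadjusted p under 0.05 in edgeR). PDHA1, the catalytic alpha subunit of pyruvate dehydrogenase, was at 138, 141 and 148 CPM in pcCon and at 131, 155 and 137 CPM in pcYY2. The groups overlapped, and the log2 fold change was -0.01 with an SE of 0.0730 (edgeR, adjusted p = 0.926). PDHB, the beta subunit, was at 55.2 to 61.1 CPM in pcCon and 49.7 to 61.2 CPM in pcYY2. The kinases PDK1, PDK2 and PDK3, which inhibit the complex, had log2 fold changes of -0.22, -0.30 and -0.15. PDK1, the kinase best known as a HIF1A target, was at 21.9 to 25.2 CPM in pcCon and 18.3 to 21.1 CPM in pcYY2, without overlap (edgeR, adjusted p = 0.177). PDK2 was at 33.8 to 37.2 CPM in pcCon and at 35.3, 25.5 and 25.2 CPM in pcYY2, where pcYY2 1 stood with pcCon. Without pcYY2 1, PDK2 was called lower, at -0.47 on the log2 scale (edgeR, adjusted p = 0.0337). Exons of SAMD14 on the other strand share 2113 bases with PDK2, but SAMD14 itself had only 15 to 29 counts per sample.

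Of the oxygen-sensing genes, HIF1A and EGLN1 were tested and neither was called. HIF1A was at 219, 202 and 224 CPM in pcCon and at 259, 214 and 208 CPM in pcYY2. Its groups overlapped, pcYY2 1 was the highest sample, and the log2 fold change was 0.08 with an SE of 0.0913 (edgeR, adjusted p = 0.605). EGLN1, the main HIF prolyl hydroxylase, was at 104 to 105 CPM in pcCon and at 106, 87.5 and 104 CPM in pcYY2, a log2 fold change of -0.08. EGLN3, a hydroxylase that HIF1A itself induces, was under the filter at 4.92 to 7.99 CPM in pcCon and 6.93 to 7.96 CPM in pcYY2, with overlap.

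Of the 7 other HIF1A targets, NDRG1 fell, and ADM, BNIP3, VEGFA and P4HA1 were tested but not called. NDRG1 (ENSG00000104419), a gene induced by hypoxia and other stresses, was at 99.7, 91.9 and 96.6 CPM in pcCon and at 67.2, 78.2 and 73.9 CPM in pcYY2. The groups were clearly apart, at 96.1 ± 3.92 and 73.1 ± 5.51 CPM (SD, n = 3 per group). The log2 fold change was -0.39 with an SE of 0.0699 (edgeR, adjusted p = 0.0222). When single samples were left out, the call of NDRG1 held without pcYY2 1 or pcYY2 2 and was lost without pcYY2 3 or any 1 of the pcCon samples (adjusted p 0.0581 to 0.0728).

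P4HA1, a collagen prolyl hydroxylase subunit and the one of these targets with the highest mean FPKM, was at 47.6, 44.9 and 59.7 CPM in pcCon and at 51.3, 61.5 and 66.5 CPM in pcYY2. Its groups overlapped, and its log2 fold change of 0.24 had an SE of 0.135 (edgeR, adjusted p = 0.293). VEGFA, the angiogenic growth factor, was at 46.8 to 55.1 CPM in pcCon and at 44.4, 32.3 and 46.2 CPM in pcYY2, just without overlap, with a log2 fold change of -0.31 (edgeR, adjusted p = 0.204). BNIP3, a mitophagy receptor, was at 42.2 to 43.1 CPM in pcCon and 35.8 to 41.6 CPM in pcYY2, with a log2 fold change of -0.16 (edgeR, adjusted p = 0.203), and its 39 named pseudogenes held 12.5% of the summed counts. ADM, the vasodilator peptide adrenomedullin, was at 23.6, 23.8 and 44.8 CPM in pcCon and 20.6 to 28.4 CPM in pcYY2. Its log2 fold change of -0.28 rested on pcCon 3 and was 0.09 without that sample. ANKRD37, under the filter, was at 1.27 to 1.74 CPM in pcCon and 1.63 to 1.86 CPM in pcYY2. Its exons share 909 bases with UFSP2 on the other strand. UFSP2 had 319 to 717 counts per sample against 23 to 47 of ANKRD37, and its part in these values was not tested.

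CA9, carbonic anhydrase IX, is a cell-surface enzyme and one of the most used markers of hypoxia. It was named here after its values were seen, since it missed the filter. Its counts were 6, 9 and 11 in pcCon and 22, 75 and 39 in pcYY2, or 0.333, 0.498 and 0.734 CPM against 1.46, 2.60 and 2.16 CPM. The lowest pcYY2 sample was above the highest pcCon sample, but all values were low, where a count of 3 in the shallowest sample already corresponds to 0.198 CPM. In the fit with a filter at a mean FPKM of 0.1, where 4.82% of 18877 genes were called, CA9 was higher by 2.04 on the log2 scale with an SE of 0.368, a fold change of 4.12 with a 95% confidence interval of 2.28 to 7.46 (edgeR, adjusted p = 0.0270). In that fit 3 of the 39 genes were called higher (ALDOC, PGK1 and CA9) and 1 lower (NDRG1). The call of CA9 held without pcYY2 1 and was lost when any 1 of the other samples was left out (adjusted p 0.0549 to 0.0961). The exons of CA9 share 571 bases with ARHGEF39 on the other strand, and whether counting used the strand is not given in the sources used here. ARHGEF39 was at 24.2, 27.5 and 18.7 CPM in pcCon and at 40.2, 34.5 and 32.5 CPM in pcYY2, also without overlap (log2 fold change 0.60, edgeR, adjusted p = 0.0532), and its part in the result of CA9 was not tested.

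**Figure D4:**
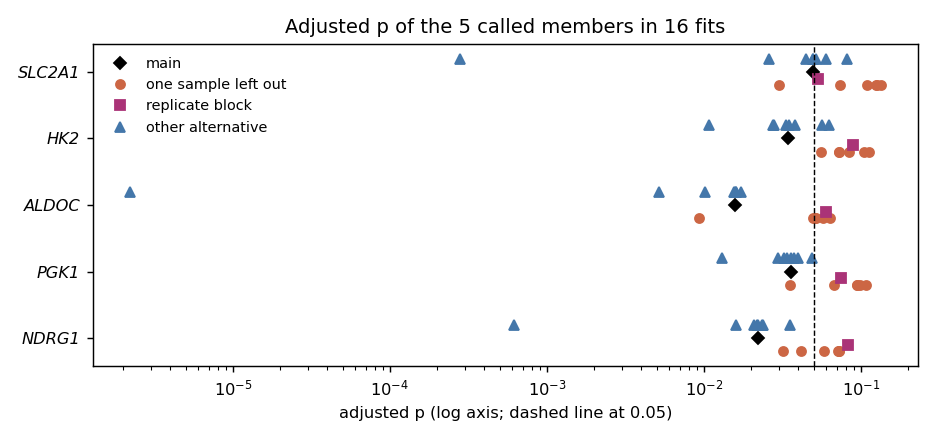
Adjusted p of the 5 called genes in 16 fits on a log axis, with the reported fit as black diamonds, the 6 fits that leave out 1 sample as orange circles, the fit with a replicate block as squares, and the other alternatives as blue triangles; the dashed line marks 0.05. Most orange circles lie to the right of the line, and the blue triangle farthest to the left in each row is the fit with DESeq2, at 2.22e-06 for ALDOC and 0.000279 for SLC2A1.

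Further genes of the same pathways were examined with 2 lists written from general knowledge. Both lists were chosen with earlier results of these data known, so the shares called in them are not an independent check. The first held 51 other genes of glucose and pyruvate metabolism, of which 28 were tested, 4 were called lower and 0 higher (edgeR; 1 was higher at an unadjusted p under 0.05, and DESeq2 called 0 higher). Its median log2 fold change was 0.02, and 14.3% of its tested genes were called against 9.37% of all. PCK2, the mitochondrial phosphoenolpyruvate carboxykinase that feeds gluconeogenesis and related synthesis, was at 40.5, 42.3 and 39.9 CPM in pcCon and at 19.9, 20.1 and 20.2 CPM in pcYY2. The samples of a group were close to each other and the groups far apart, with a log2 fold change of -1.03 and an SE of 0.0638 (edgeR, adjusted p = 0.00125). PCK2 was called in every 1 of the 16 fits, unlike any of the 39 genes. Also called lower were SLC2A13, a proton myo-inositol cotransporter (log2 fold change -0.74, edgeR, adjusted p = 0.0204), and MINPP1, an inositol phosphate phosphatase (-0.31, edgeR, adjusted p = 0.0440). SLC2A13 was called in 11 and MINPP1 in 8 of the 16 fits, and with 1 sample left out the calls held in 2 and 1 of 6 fits. None of the genes named from this list is an enzyme of glycolysis from glucose to lactate.

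The second list held 44 other genes of the hypoxia response, of which 31 were tested. Of these, 9 were called lower, or 29.0%, and 0 higher (edgeR; 1 was higher at an unadjusted p under 0.05, and DESeq2 called 10 lower and 0 higher), while 4.85% of all genes were called lower. The median log2 fold change was -0.13, with 22 values below 0 and 9 above. The 5 with the smallest p were ZNF395, STC2, DDIT4, PLOD2 and VHL. ZNF395, a zinc-finger factor induced by hypoxia, was at 66.8, 64.5 and 68.1 CPM in pcCon and at 49.1, 49.5 and 52.9 CPM in pcYY2 (log2 fold change -0.40, edgeR, adjusted p = 0.0116). STC2, a secreted glycoprotein, was at 90.9, 94.5 and 94.0 CPM in pcCon and at 71.9, 71.9 and 75.7 CPM in pcYY2 (-0.35, edgeR, adjusted p = 0.0118). In both genes the groups were far apart compared with the spread within them. DDIT4, an inhibitor of mTORC1 that stress of several kinds induces, changed by -0.44, PLOD2, a lysyl hydroxylase of collagen, by -0.39 and VHL, the ubiquitin ligase subunit that removes HIF1A, by -0.34 on the log2 scale. EPAS1 (HIF2A), the paralogue of HIF1A and outside the rule for named genes, was chosen after its values were seen. It was at 24.5, 40.1 and 41.5 CPM in pcCon and at 19.9, 19.2 and 16.6 CPM in pcYY2, a log2 fold change of -0.93 with an SE of 0.203 (edgeR, adjusted p = 0.0376). Its pcCon samples were spread widely, and the call was lost when any 1 sample other than pcCon 1 was left out (adjusted p 0.0721 to 0.112). Of 16 fits, ZNF395 was called in 14, STC2 in 13, DDIT4 in 11, PLOD2 in 10 and VHL in 7, and the call of VHL was lost when any 1 of the 6 samples was left out (adjusted p 0.0573 to 0.0921). Without pcCon 3, 0 of the 31 genes were called, though 13 had an unadjusted p under 0.05 there, and without pcCon 2 only 1 was called. Of all 12015 genes tested, 2889 had an unadjusted p under 0.05 without pcCon 3 (edgeR).

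**Figure D5:**
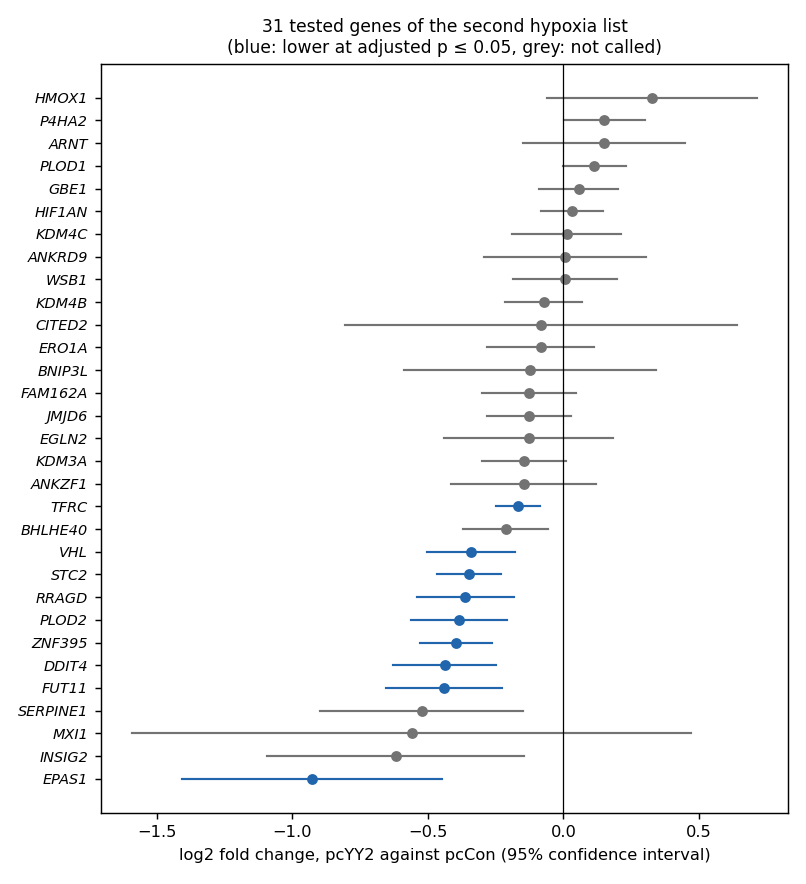
Log2 fold change, pcYY2 against pcCon, with its 95% confidence interval for the 31 tested genes of the second hypoxia list, ordered by value, with the 9 genes called lower in blue and the others in grey. Points lie mostly to the left of 0, from EPAS1 at -0.93 to HMOX1 at 0.33, and no gene is called higher.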

How the data were processed

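RNA-Seq was performed on 3 pcCon and 3 pcYY2 samples of HCT116 cells. According to the methods, the authors mapped reads to GRCh38 with Tophat and obtained FPKM with Cufflinks, and the submitters' processing notes also name HTSeq and Bowtie2, without their role. The deposited table holds counts, the whole number of reads counted on each gene, and FPKM for each gene and sample. The length behind the deposited FPKM of these genes was 1.13 to 8.75 times that of the canonical transcript in GENCODE 44, so FPKM was used only for the filter on low expression, and levels were computed as CPM per kilobase. Strand and counting mode are not given in the sources used here.

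Counts were tested for genes whose FPKM averaged 1 or more, using edgeR 4.0.16 in R 4.3.3 (TMM scaling, quasi-likelihood fit, Benjamini-Hochberg adjustment over all 12015 genes tested). The SE was derived from each fold change and its F statistic. The labels do not state separate cultures, so p-values measure only the spread between these samples, which may be technical. A floor of 3 counts corresponds to 0.101 to 0.198 CPM and covers counting error only. Full statistics were given for the called genes and for the gene with the highest mean FPKM of each role, and up to 5 called genes with the smallest p of each further list were named. The genes, lists and tests were chosen with earlier results of these data known. Alternatives were upper quartile and RLE scaling, DESeq2 1.42.0, the robust fit, a filter at a mean FPKM of 0.1 or none, counts of pseudogenes added to their parent gene, a replicate block, and each sample left out. A filter on the level per kilobase, the lower filter combined with DESeq2, the block or a sample left out, and the alternatives for called genes of the further lists were added after seeing the data. The reported edgeR fit and DESeq2 had first been tested on simulated data, and the other alternatives had not. The simulated fold changes were 1.5 and 2, so changes as small as those of PGK1, HK2 and NDRG1 were not covered. Tables, sequences and plots were made with Python 3.11.15, pandas 2.3.3 and matplotlib 3.10.9. Raw reads and the other experiments of the study were not analysed here. A called gene of a further list is not reported here.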

Additional observations from a re-analysis of the deposited data

How the results depend on the processing

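The 5 called genes kept their direction in all 16 fits, but their calls did not all hold. Of 75 results of these genes under an alternative, 41 stayed on the same side of the threshold and 34 lost the call. The number called among the 39 genes was 4 to 6 under other scalings, filters and tests. Leaving out 1 sample gave 0 to 6, where 0 came without pcCon 2, without pcCon 3 and without pcYY2 3 (edgeR). At an unadjusted p under 0.05 were then 7, 9 and 7 of these genes, and 2771, 2889 and 2898 of all 12015. Over all genes, the fits with 1 sample left out called 285 to 805 against 1126, and fewer samples enter them. In the further glucose and pyruvate list they called 1 to 3 genes, and in the further hypoxia list 0 to 4. In the former, a filter at a mean FPKM of 0.1 and no filter each left 2 genes called. The cause of the other changes was not tested.

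Samples with the same number in both groups deviated from their group means with correlations of -0.0246, -0.0173 and 0.000366 across genes. Samples with different numbers were at -0.0341 to 0.0528. No shared deviation was seen, and whether samples of the same number were handled together is not stated. With a replicate block in the fit, edgeR called 101 genes in all and 0 of the 35 (9 at an unadjusted p under 0.05). It called 1 of the glucose and pyruvate list and 0 of the hypoxia list (12 at an unadjusted p under 0.05). In this fit 3109 of all 12015 genes tested had an unadjusted p under 0.05.

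The fold change changed sign only for genes that were not called. With the lower filter or without any, LDHB was at 0.016 and 0.008 and PDHA1 at 0.009 and 0.002 on the log2 scale. With 1 sample left out, sign changes were found for HK1 (-0.108 to 0.012), PFKM (-0.084 to 0.037), ENO2 (-0.062 to 0.367), LDHB (-0.033 to 0.014), PDHA1 (-0.087 to 0.040), PDHB (-0.099 to 0.048), ADM (-0.446 to 0.088), EGLN1 (-0.126 to 0.004), HIF1A (-0.024 to 0.140) and EGLN3 (-0.023 to 0.308). The low counts of CA9 leave its fold change with the wide interval given.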
